A study of Mus musculus with 13 samples.

Results

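The genes described here belong to the ATF4 arm of the integrated stress response. They were selected by symbol from the authors' deposited liver table, and 7 of the 10 genes named for the response are listed there, among 11779 genes in all. The listed genes are Atf4, Atf5, Ddit3, Trib3, Sesn2, Ddit4 and Fgf21. The other 3, Asns, Chac1 and Psat1, have no row in the table, so their levels are not analysed here. The symbols were chosen from known ATF4 genes with the authors' fold changes for these livers already in view, so no finding is read from their choice, and those fold changes are not used here.

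Liver RNA came from Balb/c mice on day 5 after injection of GalNAc-conjugated antisense oligonucleotides (ASOs), which are taken up by hepatocytes. The group named Liver LL35 ASO (3 mice) received a mix of ASOs against the lncRNA LL35, given as 5 in the labels, and the group named Liver Luc ASO (3 mice) received 1 ASO against firefly luciferase, a gene that mice do not have. Both groups were therefore injected with a conjugated ASO, and no untreated liver was used. The sex and age of the mice are not given in the sources used here, and the labels and the methods differ on whether the dose applied to each ASO or to the mix. The study's list of conjugates made for the liver, as read here, names fewer LL35 ASOs than the labels, so the makeup of the mix is not settled here. Libraries of AML12 cells, a mouse hepatocyte line, were not analysed here.

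The level of each gene is the authors' mean normalized count, a single value averaged over the liver libraries of both groups. It holds no value for a single mouse, so no spread between mice can be given and no difference between LL35 ASO and Luc ASO livers is described. The depth of the libraries is unknown for the same reason. Across the listed genes this mean ran from 15.6 to 1217472, with a median of 235. No gene with a lower mean has a row, so this median and the percentiles below are set among listed genes only. Levels of different genes are given per kb of all annotated exons, and comparisons without a length, or with coding length, are named as such. The median of the listed genes per kb of exon was 51.5 normalized counts per kb, and a percentile below is the share of listed genes at or below a level per kb.

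The integrated stress response starts when 1 of 4 kinases senses a stress, such as missing amino acids, unfolded protein, double-stranded RNA or lack of heme, and phosphorylates the translation factor eIF2. General protein synthesis then slows, while the mRNA of the transcription factor ATF4 is translated better, because upstream reading frames in its leader stop diverting ribosomes. ATF4 pairs with C/EBP proteins and other bZIP factors and switches on genes for amino acid supply, redox balance and feedback on the response. In the liver the same arm is known to raise the secreted hormone FGF21 when protein is scarce. Since ATF4 is set largely by translation, the level of Atf4 mRNA is not a measure of ATF4 activity.

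The DNA element that ATF4 dimers are known to bind, the C/EBP-ATF composite element, has the core TGATGNAA. It was searched on both strands of the RefSeq promoter windows (assembly GRCm38.p6), which run from 250 bases before an annotated gene start through the 50 bases from that start on. All 10 named genes have at least 1 window, 12 windows in all, and 4 genes held a match. They were Fgf21 and Trib3 among the listed genes and Asns and Chac1 among those not listed. Their matches are shown, in capitals within 30 bases, because this core is what ATF4 dimers are known to bind. A match describes the letters and does not show binding. Each is written along the strand of its gene, so TGATGCAA on the opposite strand reads TTGCATCA.

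Fgf21: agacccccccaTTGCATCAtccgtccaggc
Trib3: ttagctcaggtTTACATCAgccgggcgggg
Asns: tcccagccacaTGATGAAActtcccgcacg
Chac1: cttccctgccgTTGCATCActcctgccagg

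The Fgf21 stretch lies on the minus strand at chr7:45615611-45615640, and its match begins 139 bases before the start. The Chac1 stretch lies on the plus strand at chr2:119351038-119351067, with the match 193 bases before the start. Fgf21 and Chac1 shared the same 8 letters. The Asns stretch lies on the minus strand at chr6:7693214-7693243. Its match, the closest to a start from the upstream side, begins 23 bases before it and was the one match of the 4 that reads TGATGAAA along the gene. The Trib3 stretch lies on the minus strand at chr2:152344028-152344057 and is the exception in position, since its match begins 14 bases after the annotated start. No match was found in the windows of Atf4, Atf5, Ddit3, Sesn2, Ddit4 and Psat1, which says only that these letters are not in these windows. By window, 4 of the 12 held the core, beside 3.97% of all 32851 promoter windows in the RefSeq table. By gene, 2.74% of the listed genes with a window held it, beside Fgf21 and Trib3 among the 7 listed here. The genes were named as known ATF4 genes, so these counts describe them and are no test.

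**Figure D1:**
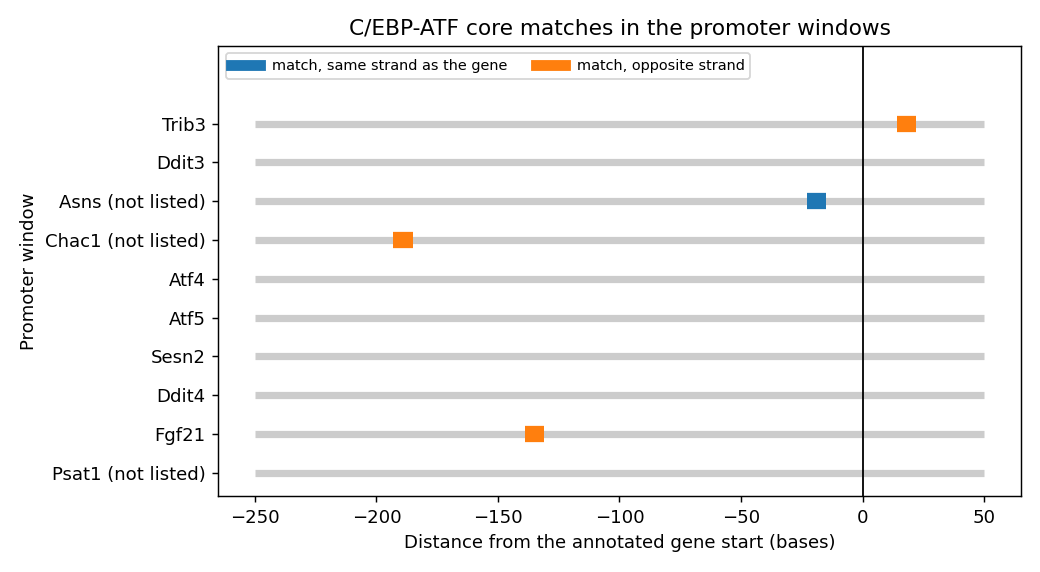
Promoter windows of the 10 named genes, drawn by distance from the annotated start in bases, with matches to the TGATGNAA core on the strand of the gene (blue) or the opposite strand (orange). Atf5 and Psat1 have 2 windows each and no match in either. Matches lie before the start in Fgf21, Asns and Chac1 and after it in Trib3.

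Among the 3 transcription factor genes Atf4, Atf5 and Ddit3, Atf5 had the highest level per kb. Atf5 encodes a bZIP factor related to ATF4, whose mRNA is also translated better when eIF2 is phosphorylated. Its mean normalized count was 4096, or 2055 per kb over 1.993 kb of exon, at the percentile of 98.3. For Atf4, the central factor of the response, the mean normalized count was 646 and the level 274 per kb, at the percentile of 87.9. Ddit3 encodes CHOP, a factor induced by ATF4 that is linked to cell death under lasting stress. Its mean normalized count was 67.0 and its level was 39.1 per kb, below the median of the listed genes, at the percentile of 41.6. Per kb, Atf5 was 7.50 times as high as Atf4 and 52.5 times as high as Ddit3. Atf5 alone made up 74.6% of the summed level per kb of the 7 listed genes.

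The genes that restrain growth or feed back on the response lay lower than Atf4. For Ddit4, which encodes the mTORC1 inhibitor REDD1, the mean normalized count was 316 and the level 180 per kb, at the percentile of 81.6. Sesn2, which encodes the leucine sensor Sestrin2, another brake on mTORC1, had a mean of 164 normalized counts, or 47.2 per kb, at the percentile of 47.5. Trib3 encodes a pseudokinase that binds ATF4 and dampens its activity. It was the lowest of the listed genes per kb, with a mean of 68.9 normalized counts, or 32.4 per kb, at the percentile of 36.5. Atf4 was 8.44 times as high as Trib3 per kb.

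The mean normalized count of Fgf21, the hormone gene, was 120, under the median of the listed genes without division by length. Its annotated exons cover 0.951 kb, the shortest of the 7, and per kb its level was 126, above the median, at the percentile of 74.4. With coding length in place of exon length its percentile was 54.5, so the place of Fgf21 among liver genes depends on how length is counted.

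By level per kb the order was Atf5, Atf4, Ddit4, Fgf21, Sesn2, Ddit3 and Trib3. The first 4 lay above the median of the listed genes and the last 3 below it. Without division by length, 3 genes lay above the median, Atf5, Atf4 and Ddit4. Whether neighbours in this order differ beyond the spread between mice is unknown. The 3 lowest genes lay close together, and with coding length Ddit3 (133 per coding kb) passed Sesn2 (114 per coding kb) while Trib3 stayed last (64.9 per coding kb).

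**Figure D2:**
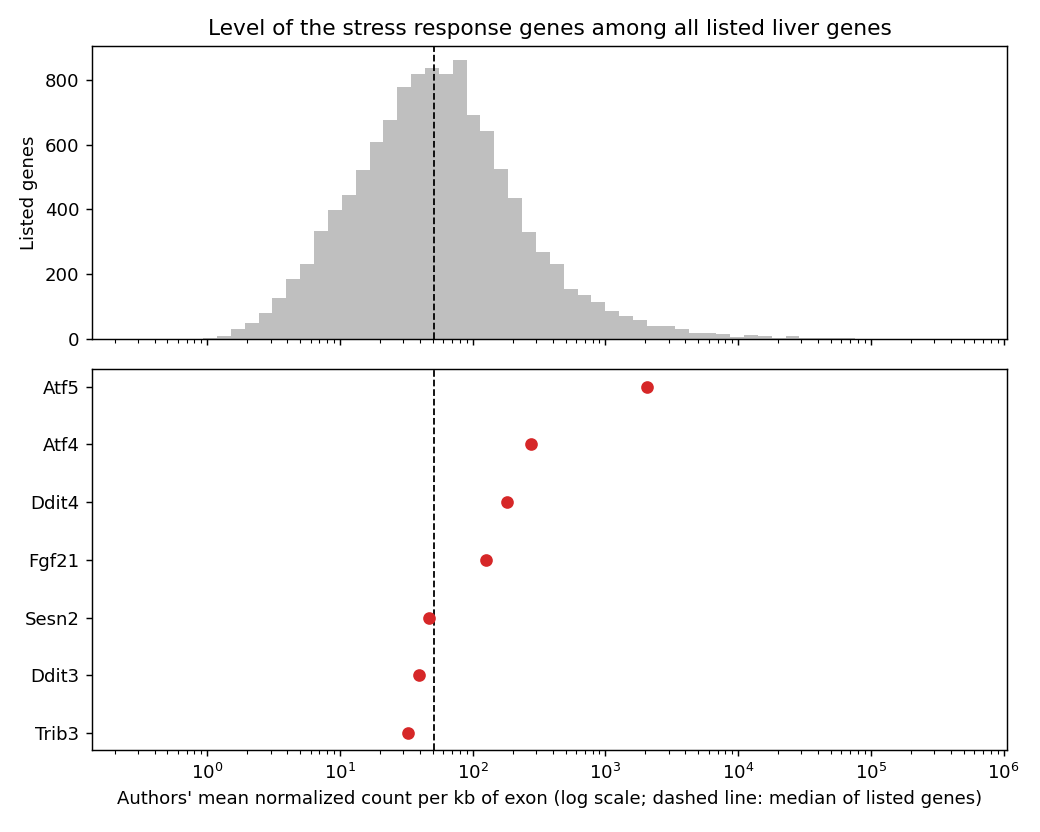
Levels of the 7 listed stress response genes (red points) under the distribution of all listed liver genes with an exon length (grey bars, number of genes), both as the authors' mean normalized count per kb of exon on a log axis. The dashed line is the median of the listed genes, 51.5 per kb, and the points are single pooled means without error bars. Atf5 is the highest of the 7 at 2055 per kb, and Sesn2, Ddit3 and Trib3 lie under the median.

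Reads of some of these genes could also match other genes, and how such reads entered or left the counts was not tested. Exons of Atf5 overlap those of Nup62 and Il4i1 on the other strand, and 1.81% of the 50-base words in its transcripts also occur in transcripts of those genes. Exons of Ddit3 overlap those of Mars and Gm4189 on the other strand and of a second annotated gene that carries the same symbol, and 4.38% of its 50-base words are shared. The library kit keeps strand, but the strand setting used in counting is not given in the sources used here. The second gene with the symbol Ddit3 lies on the same strand, so that overlap remains under any setting. Whether it lowered the level of Ddit3 was not tested. For Atf4, Trib3, Sesn2, Ddit4 and Fgf21, 0 words were shared and no exon of another gene overlapped. The length of 50 bases was chosen here and not set from the read length, so the sharing of shorter reads was not tested.

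Around these genes, 35 of 45 other genes of the pathway are listed, and 22 of the 35 lay above the median per kb. Their levels are given with exon length only, and how far their places depend on that choice was not tested. All 5 genes of the sensing step are listed, within a range from 28.8 to 81.5 per kb. The heme-regulated kinase gene Eif2ak1 was highest at 81.5 per kb, followed by Eif2ak3 (PERK, the kinase of the endoplasmic reticulum) at 67.2 and Eif2ak2 (PKR, which binds double-stranded RNA) at 52.0 per kb. Eif2ak4 (GCN2, the kinase that senses uncharged tRNA) was lowest at 28.8 per kb. Their target Eif2s1 had 63.9 per kb. The regulatory subunits that bring a phosphatase to eIF2 differed more, with 429 per kb for Ppp1r15b, the constitutive subunit, and 40.9 per kb for Ppp1r15a, the subunit induced by ATF4 and CHOP.

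Among possible dimer partners and related bZIP genes, 7 of 8 are listed. Cebpa and Cebpb, which encode liver-enriched C/EBP factors, had 1219 and 1150 per kb, both above Atf4 and below Atf5. Cebpg, a known partner of ATF4, had 189 per kb. Nfe2l2 had 229 per kb. Cebpd (51.0 per kb, close to the median), the stress-induced gene Atf3 (36.3 per kb) and Jdp2 (22.2 per kb) lay below the median. Atf3 and Jdp2 were at levels near those of Ddit3 and Trib3.

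Several genes of amino acid supply have no row. The share of all annotated genes without a row was not counted, so a missing row is not read as a trait of these genes. Of 8 enzymes of serine, one-carbon and proline synthesis 3 are listed, and 1 of them, the mitochondrial serine hydroxymethyltransferase gene Shmt2, lay above the median with 461 per kb. Psph, the last enzyme of serine synthesis, had 10.0 per kb. Of 9 amino acid transporter genes 7 are listed, from 2.01 per kb for the cationic amino acid carrier Slc7a1 to 552 per kb for the glutamine carrier Slc38a2. Among the other known targets 7 of 9 are listed, and 3 were of the same order as Atf5: Herpud1, which serves the disposal of misfolded proteins, at 3413 per kb, the alanine aminotransferase gene Gpt2 at 1333 and the cystathionine gamma-lyase gene Cth at 939 per kb. The stress hormone gene Gdf15 had 93.4 per kb, beside 126 for Fgf21. All 4 genes of the other branches of the unfolded protein response lay above the median, and Hspa5, the chaperone BiP, was highest at 3230 per kb.

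**Figure D3:**
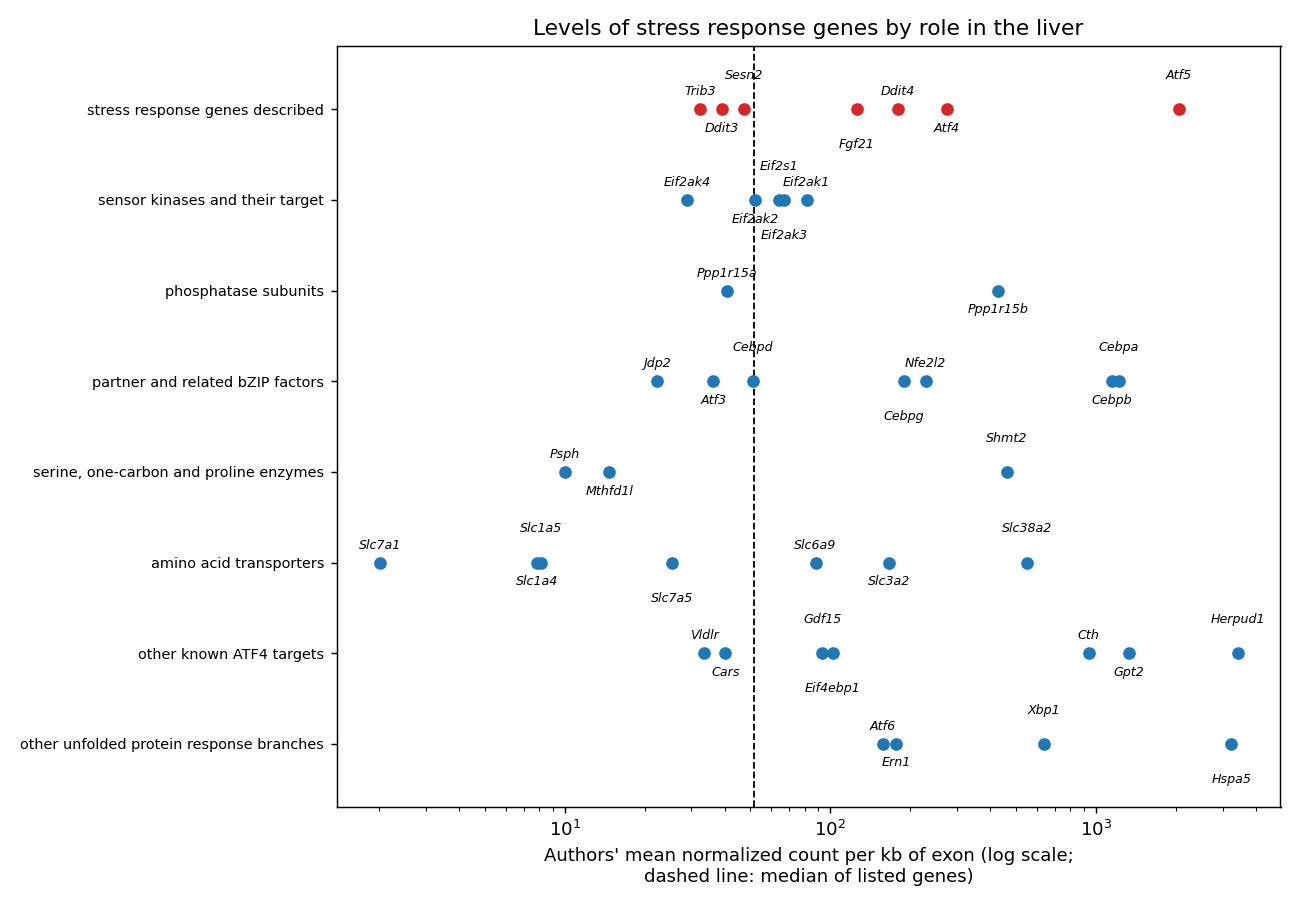
Levels of the 7 listed stress response genes (red) and of the 35 other listed pathway genes (blue) by role, as the authors' mean normalized count per kb of exon on a log axis. Each point is 1 gene, a pooled mean without an error bar, and the dashed line is the median of all listed genes. The sensing genes lie between 28.8 and 81.5 per kb. The genes in the role of other known targets run from 33.6 to 3413 per kb, and the amino acid transporters from 2.01 to 552 per kb.

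The promoter search was extended to the other pathway genes, of which 34 have a RefSeq window. A match was found for 8 of them, all with the stricter form TGATGCAA, which 0.895% of all promoter windows held. The list holds genes known as ATF4 targets, so the count describes those genes and is no test. They are shown as above, because the same 8 letters recur as in Fgf21 and Chac1. Slc7a11, the cystine carrier gene, held 2 matches, of which the one farther from the start is shown.

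Atf3: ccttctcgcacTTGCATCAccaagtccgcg
Jdp2: atagccggggcTGATGCAAcccgtcccgcc
Pycr1: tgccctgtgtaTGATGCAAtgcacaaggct
Slc7a11: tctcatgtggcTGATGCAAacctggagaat
Slc1a4: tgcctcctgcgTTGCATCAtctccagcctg
Nupr1: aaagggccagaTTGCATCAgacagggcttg
Vldlr: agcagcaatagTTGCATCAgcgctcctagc
Herpud1: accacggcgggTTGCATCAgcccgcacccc

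These stretches lie, in GRCm38.p6, at chr1:191183425-191183454 on the minus strand (Atf3), chr12:85599372-85599401 on the plus strand (Jdp2), chr11:120643833-120643862 on the minus strand (Pycr1) and chr3:50443661-50443690 on the minus strand (Slc7a11). The others lie at chr11:20332699-20332728 on the minus strand (Slc1a4), chr7:126625562-126625591 on the minus strand (Nupr1), chr19:27216809-27216838 on the plus strand (Vldlr) and chr8:94386306-94386335 on the plus strand (Herpud1). The matches began between 4 bases (Slc1a4) and 200 bases (Vldlr) before the start. Pycr1, Slc7a11 and Nupr1, like Asns and Chac1, have no row, so their levels are not known here. Among the genes with the core that are listed, levels ran from 7.86 per kb for Slc1a4 and 32.4 for Trib3 to 126 for Fgf21 and 3413 for Herpud1.

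The label of the tissue was checked with markers. All 6 hepatocyte markers are listed, from 4262 per kb for Serpina1c to 519843 per kb for Alb, and each was above Atf5. The 4 Kupffer cell markers had between 121 and 791 per kb, the 3 sinusoidal endothelial markers between 126 and 289, and the 3 stellate cell markers between 13.8 and 265 per kb. Of the cholangiocyte markers, Sox9 is listed with 9.94 per kb, while Krt19 and Epcam have no row. The values come from whole liver, in which fewer cells of a type and less RNA per cell cannot be told apart, and which cells carried the stress response transcripts was not tested. The LL35 gene, 9030622O22Rik, was not checked here, since a pooled mean cannot show a knockdown.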

How the data were processed

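Per the labels and the methods, liver RNA from 6 Balb/c mice (2 groups of 3) was depleted of rRNA and sequenced in single-read mode. The authors aligned reads with STAR 2.5.3a, counted them per gene on an Ensembl annotation and normalized them with DESeq2 by the RLE method. The genome build is not given in the sources used here. The deposited liver table holds a signal, the normalized count averaged across both groups, which was used here. Its other columns hold the authors' comparison of the groups (log2 fold change, standard error, Wald statistic, p-value and adjusted p-value) and were not used, so no test was made. The depth per library and the precision it gives are unknown.

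Exon and coding lengths were the union of annotated exons and coding parts in GENCODE release M21 (GRCm38), matched by Ensembl identifier for 11754 and 11384 of the 11779 listed genes. Shared 50-base words were counted over the GENCODE transcripts on both strands. Promoter windows came from RefSeq (GRCm38.p6) and were matched by symbol for all 10 genes. The genes named are the 10 of the response, the other pathway genes in 7 roles and liver cell markers. These genes and lists were chosen with earlier results of these data known. Alternatives changed the matching of rows, the filter on low means, the genes that set the median, the length, the motif and the window. The motif search, percentiles and lengths were tested on simulated data. Python 3.11.15, pandas 2.3.3, numpy 2.4.6 and matplotlib 3.10.9 were used.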

Additional observations from a re-analysis of the deposited data

How the results depend on the processing

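The count of named genes with the C/EBP-ATF core in a promoter window depended on the letters searched, with 4 genes for TGATGNAA, 2 for TGATGCAA (Fgf21 and Chac1), 5 for TGATG (Atf5 in addition) and 3 for TGATGNAA in the 250 bases before the start alone (without Trib3). TGATG contains no more than the first letters of the core, so every match of the core is also one of TGATG, which 39.3% of all promoter windows held. Matching rows by synonyms and Ensembl identifiers as well left 7 listed genes and 35 other pathway genes. The number above the median level was 3 with all listed genes, with only those at 50 normalized counts or more and among genes with a RefSeq protein. Per length it was 4 with exon length, with coding length and with the same minimum. No paired analysis was possible because the table holds 1 mean over all liver libraries, and for the same reason leaving out single mice could not be run. The depth, the spread between mice and the difference between the groups are not in the mean that was used.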
